A study of Mus musculus with 2 samples.

Results

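The MHC class I and peptide loading genes are 10 genes chosen by name: the class I heavy chains *H2-K1*, *H2-D1* and *H2-T23*, the light chain *B2m*, the peptide transporter subunits *Tap1* and *Tap2*, tapasin (*Tapbp*), the immunoproteasome subunits *Psmb8* and *Psmb9*, and the coactivator *Nlrc5*. All 10 were found among the 50768 genes of both count tables. A class I molecule is a heavy chain bound to β2-microglobulin and a short peptide, and it shows the cell's own protein fragments to CD8 T cells and NK cells. The peptides are cut by the proteasome, carried into the endoplasmic reticulum by TAP and fitted to the heavy chain with the help of tapasin. Interferons are known to raise most of these genes, and Nlrc5 acts at class I promoters together with RFX, CREB-family and NF-Y factors.

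The single-cell RNA sequencing (scRNAseq) compared salivary glands of NOD/ShiLtJ mice, an inbred strain used as a genetic model of Sjögren's disease, with those of outbred CD1 mice as controls. Both were untreated females aged 20 weeks, and submandibular glands with adjacent sublingual glands were pooled, from 4 mice of each strain in the study's methods and from 3 in the sample labels. Epithelial cells (EpCAM) and red cells (Ter119) were pulled out on beads and dead cells taken away, so the libraries hold mostly stromal and immune cells. With 1 library per strain there is no replicate and no difference was tested, and since NOD and CD1 also differ in genetic background, strain and disease cannot be told apart. NOD mice carry the H2-g7 haplotype, with the class I alleles Kd and Db, whereas outbred CD1 mice can carry several haplotypes.

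The NOD library held 52790319 unique molecular identifiers (UMIs, tags that count single RNA molecules) and the CD1 library 56483149. Barcodes with at least 500 UMIs and 300 genes were kept, 6500.0 in NOD with a median of 5720 UMIs and 7014 in CD1 with a median of 6495, and 18 of these barcodes occurred in both libraries. A barcode entered a gate when it had at least 1 UMI of the gate gene and 0 of the other 5. The gate genes were *Cd3e* (T), *Cd79a* (B), *Ncr1* (NK), *C1qa* (macrophage), *Pecam1* (endothelial) and *Pdgfra* (fibroblast). A level is the UMIs of a gene summed over a gate per 1000000 UMIs of that gate (CPM), with an exact Poisson 95% interval in square brackets. Ratios are log2 of NOD over CD1 with a conditional binomial 95% interval, and both kinds of interval cover counting error only.

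The gates held very different numbers of barcodes. The NOD and CD1 T gates held 1281 and 56 barcodes, the NK gates 322 and 202, the macrophage gates 646 and 2801, the endothelial gates 1063 and 2451, and the fibroblast gates 41 and 15. In these gates all markers of the gate's own list were detected in both libraries, and their summed level was above that of every other list. That holds for sums over a gate and not for each barcode. A second fibroblast marker was found in 41 NOD and 10 CD1 barcodes of the fibroblast gate. For the endothelial gate these numbers were 890 and 2416. The median UMIs of macrophage barcodes were 2509 in NOD and 6707 in CD1, and salivary secretory genes reached 1733 and 2274 CPM there. Summed markers of other cells were higher in NOD macrophages for T cells (52.9 and 5.01 CPM), B cells (37.3 and 4.95), dendritic cells (138 and 36.9) and plasma cells (174 and 42.7). In the fibroblast gate NK markers summed to 0 in NOD and 298 CPM in CD1, endothelial markers to 16.4 and 263, T cell markers to 14.1 and 114, and macrophage markers to 442 and 270.0. In the endothelial gate the 9 T cell markers summed to 115 CPM in NOD and 6.56 in CD1 (*Cd3e* itself was at 0 by the gate), and the part of such cells in the values of the 3 gates was not tested. Barcodes with UMIs of several gate genes (2133 and 919) or of none (789 and 566) were left out of the gates. The B gate held 225 NOD and 4 CD1 barcodes, and plasma cell genes (*Jchain*, *Mzb1*, *Igha*, *Sdc1*) took 49677 and 214548 CPM of it. With so few CD1 barcodes, ratios of the B gate are given below only as values.

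Class I heavy chain genes resemble each other, which bears on how reads of NOD alleles are placed. Counting used a GRCm39 reference, which is built on the C57BL/6J strain and holds the class I alleles of that strain. Which NOD or CD1 alleles differ from these was not examined, and it need not be all of them. The 4th exon of 8, which is wholly coding and encodes the domain next to the membrane, is shown for *H2-K1* (transcript H2-K1-201, chr17:33997285-33997560, minus strand) and *H2-D1* (H2-D1-202, chr17:35265784-35266059, plus strand), to let the genes be compared base by base. Sequences and coordinates are those of GENCODE vM21 on GRCm38, and capitals mark the bases that differ.
H2-K1: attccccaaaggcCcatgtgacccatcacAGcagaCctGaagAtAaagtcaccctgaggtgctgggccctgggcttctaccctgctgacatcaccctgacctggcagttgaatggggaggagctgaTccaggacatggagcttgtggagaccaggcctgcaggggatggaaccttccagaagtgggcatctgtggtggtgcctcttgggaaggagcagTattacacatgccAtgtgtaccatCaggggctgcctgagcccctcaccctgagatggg
H2-D1: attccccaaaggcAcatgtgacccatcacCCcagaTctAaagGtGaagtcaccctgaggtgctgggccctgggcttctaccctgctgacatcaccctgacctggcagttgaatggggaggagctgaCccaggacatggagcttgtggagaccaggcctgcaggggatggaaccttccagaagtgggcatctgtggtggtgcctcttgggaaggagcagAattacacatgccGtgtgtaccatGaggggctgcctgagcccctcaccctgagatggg
The exons differed at 11 of 276 bases, an identity of 96.0%, and their longest identical run was 91 bases. Over whole transcripts, 3.97% of the 60-base windows of *H2-K1*, 9.74% of those of *H2-D1* and 21.2% of those of *H2-T23* also occurred in transcripts of another gene. No such window was found for *B2m*, *Psmb8*, *Psmb9* or *Nlrc5*. The levels of the heavy chains are therefore less certain than those of the other members, and how many reads of NOD or CD1 alleles were lost or moved to another gene was not tested.

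The 10 members were higher in NOD in macrophages and fibroblasts but not in every kind of cell. Their summed level was 8406 CPM [8307, 8506] in NOD macrophages and 5614 [5580, 5648] in CD1 macrophages, a log2 ratio of 0.58 [0.56, 0.60], and 0.55 when only barcodes with at least 5000 UMIs were used. In fibroblasts it was 8443 [8170, 8724] in NOD and 3937 [3616, 4279] in CD1, a log2 ratio of 1.10 [0.97, 1.23]. This ratio was 1.30 when a second fibroblast marker was also asked for, which left 10 CD1 barcodes. T and NK cells differed little in this sum, with log2 ratios of 0.02 [-0.03, 0.07] and -0.03 [-0.06, 0.00]. Endothelial cells had less in NOD, 7708 [7636, 7780] against 8686 [8641, 8730], a log2 ratio of -0.17 [-0.19, -0.16]. The B gate gave 0.11 [-0.04, 0.27] on 4 CD1 barcodes.

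Counted gene by gene, all 10 members had at least 20 UMIs over both libraries in each gate. In the macrophage gate 5 of 10 (*H2-K1*, *Tap1*, *Psmb8*, *Psmb9*, *Nlrc5*) were at least 1.5-fold higher in NOD, where 13.8% of all genes were, and 0 were at least 1.5-fold lower, where 12.4% were. In the fibroblast gate 7 of 10 (*H2-K1*, *H2-D1*, *B2m*, *Tap1*, *Tap2*, *Psmb9*, *Nlrc5*) were past this fold against 26% of all genes, and 0 were lower against 20.2%. The T gate had 1 higher member, *Nlrc5* (27.8% of all genes), and 1 lower, *H2-T23* (14.2%). The NK gate had the same members, 1 higher (13.8%) and 1 lower (9.68%). The endothelial gate had 1 higher, *Nlrc5* (20.3%), and 2 lower, *H2-D1* and *H2-T23* (9.22%). *H2-D1* lay just past the fold there, and *H2-T23* alone was past it with at least 2 UMIs of the gate gene, with a second endothelial marker, with at most 10% mitochondrial UMIs or with at least 5000 UMIs. In the B gate 7 of 10 were higher and 2 lower, where 64.9% and 9.88% of all genes were, so a count there says little about the members. The median log2 ratio of the members was 0.61 in macrophages and 1.08 in fibroblasts, beside 0.04 and 0.07 over all genes, and it was 0.20, 0.03 and 0.01 in T, NK and endothelial cells, beside 0.15, 0.04 and 0.10.

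**Figure D1:**
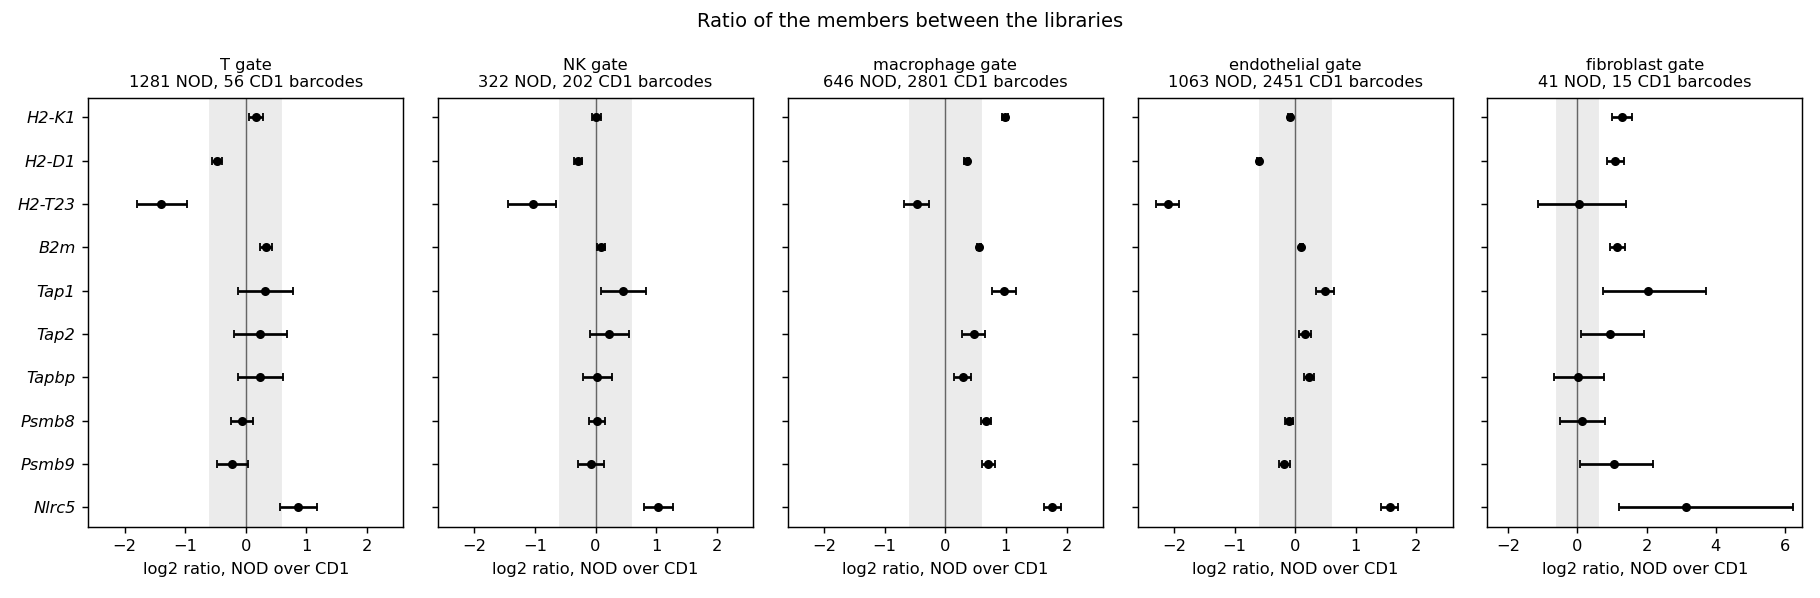
Log2 ratio (x axis, NOD over CD1) of each of the 10 genes (rows) in 5 gates, with bars for 95% counting intervals and a grey band for ratios within 1.5-fold; the B gate, with 4 CD1 barcodes, is not drawn. *Nlrc5* lies to the right of the band in all 5 panels and *H2-T23* to the left of it in the T, NK and endothelial panels, and the fibroblast axis is longer than the others.

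*H2-K1* encodes the heavy chain of the K molecule, one of the classical class I molecules that present peptides to CD8 T cells. Its level was 1550 CPM [1508, 1593] in NOD macrophages and 786 [773, 798] in CD1 macrophages, a log2 ratio of 0.98 [0.93, 1.03]. In fibroblasts it was 1831 [1704, 1964] and 753 [617, 911], a log2 ratio of 1.28 [0.99, 1.59]. The other gates lay close together. The level was 1556 in NOD and 1385 in CD1 T cells (log2 ratio 0.17 [0.05, 0.29]), 1494 and 1483 in NK cells (0.01 [-0.06, 0.08]), and 1673 and 1775 in endothelial cells (-0.09 [-0.12, -0.05]).

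*H2-D1* encodes the heavy chain of the D molecule, also a classical one, and followed a different pattern. It was lower in NOD in 3 gates: 1857 CPM against 2574 in T cells (log2 ratio -0.47 [-0.56, -0.38]), 1834 against 2234 in NK cells (-0.28 [-0.35, -0.22]) and 1996 against 3022 in endothelial cells (-0.60 [-0.63, -0.57]). In macrophages it was higher in NOD, 2123 against 1663 (0.35 [0.31, 0.39]), and likewise in fibroblasts, 2576 against 1201 (1.10 [0.87, 1.34]). In every gate the ratio of *H2-D1* was thus below that of *H2-K1*.

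*H2-T23* encodes the heavy chain of Qa-1, which presents peptides from the leaders of other class I chains to the CD94/NKG2A receptor of NK cells. It had fewer UMIs than the classical chains and was the member lower in NOD in most gates. In endothelial cells it was 46.4 CPM [41.0, 52.3] in NOD and 199 [193, 206] in CD1, a log2 ratio of -2.10 [-2.29, -1.92]. In T cells it was 48.0 [43.5, 52.9] and 126 [95.1, 164] (-1.39 [-1.80, -0.96]), and in NK cells 39.8 and 81.9 (-1.04 [-1.44, -0.65]). In macrophages the difference was smaller, 68.5 against 94.7 (-0.47 [-0.67, -0.27]). The fibroblast gates held 25 and 8 UMIs, too few to tell the libraries apart (0.05 [-1.15, 1.41]).

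The make-up of the class I heavy chain UMIs differed between the libraries in a similar way in each gate. Of all UMIs of class I heavy chain genes, *H2-K1* made up 41.0% [40.4, 41.5] in NOD and 31.5% [29.5, 33.7] in CD1 T cells, with exact binomial 95% intervals. The shares were 40.8% and 36.4% in NK cells, 38.8% and 28.9% in macrophages, 41.8% and 33.3% in endothelial cells, and 38.9% and 35.1% in fibroblasts, where the intervals overlapped. The number of *H2-K1* UMIs per *H2-D1* UMI was 0.71 to 0.90 in the 6 NOD gates and 0.47 to 0.66 in the 6 CD1 gates. *H2-T23* made up 1.16% of these UMIs in NOD and 3.74% in CD1 endothelial cells, and 1.72% and 3.48% in macrophages. Empty droplets, barcodes with 10 to 100 UMIs that hold free RNA, had the same difference, with *H2-K1* at 42.2% [41.5, 42.8] in NOD and 34.8% [33.9, 35.6] in CD1. Since the class I alleles can differ between the strains, for some of these genes or for all, RNA amount and read placement cannot be told apart here.

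**Figure D2:**
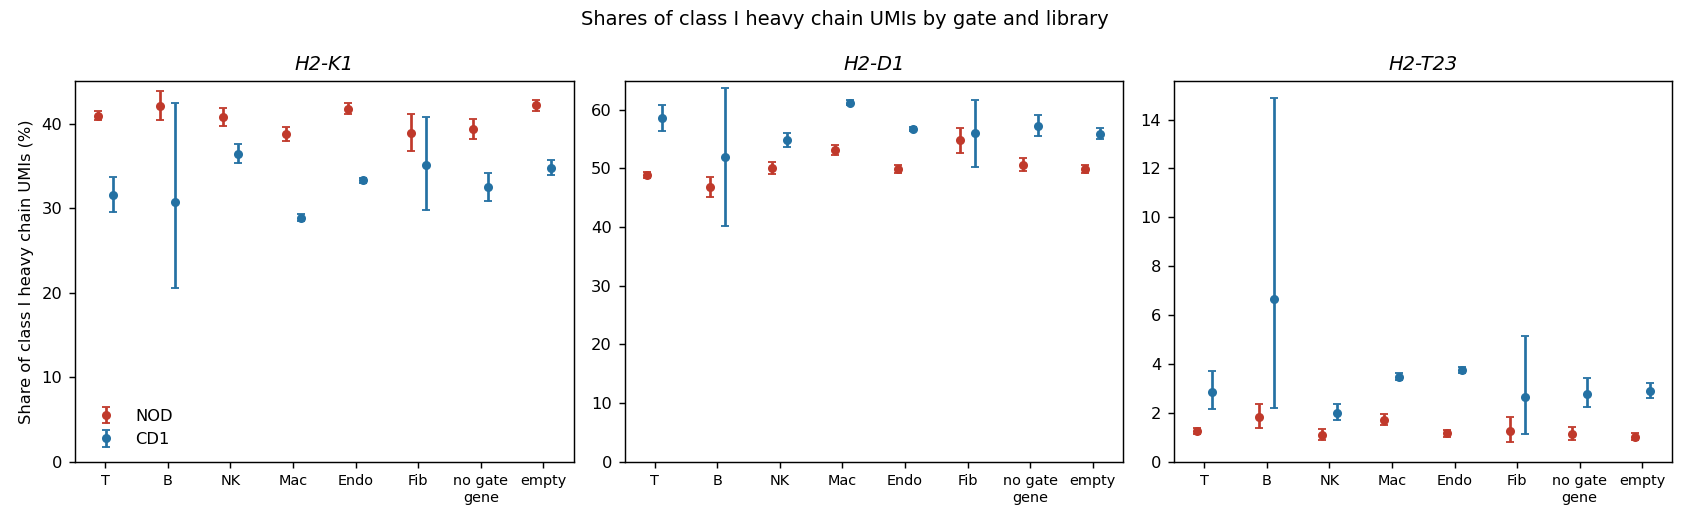
Share (y axis, %) of *H2-K1*, *H2-D1* and *H2-T23* in all class I heavy chain UMIs of each gate, of barcodes with no gate gene and of empty droplets (x axis; Mac, macrophage; Endo, endothelial; Fib, fibroblast), with exact binomial 95% intervals for the NOD and CD1 libraries. The NOD points for *H2-K1* lie between 38.8% and 42.2%, above the CD1 point of the same group, and the CD1 B gate rests on 75 heavy chain UMIs.

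Among the other heavy chains with at least 20 UMIs over both libraries, *H2-T22* had the lowest ratio in the T, NK, macrophage and endothelial gates. Its levels were 9.62 CPM in NOD and 69.7 in CD1 T cells, 7.61 and 32.8 in NK cells, 5.20 and 9.20 in macrophages, and 6.95 and 40.4 in endothelial cells, with log2 ratios of -2.86, -2.11, -0.82 and -2.54. Of its 60-base windows 36.5% occur in other genes, mostly *H2-T10*, whose log2 ratio was 0.41, -0.10, 1.23 and -0.02 in the same gates. *H2-Q7*, a Qa-2 heavy chain, was 23.3 CPM in NOD and 5.39 in CD1 macrophages, with a log2 ratio of 2.11 [1.66, 2.56]. *H2-Q4* differed by 0.72 [0.48, 0.96] in macrophages and -0.18 [-0.32, -0.05] in endothelial cells. Other genes share 28.8% of the 60-base windows of *H2-Q7*, mostly *H2-Q6* and *H2-Q5*, and 15.0% of those of *H2-Q4*, so read placement bears on both. *H2-Q6* had at most 7 UMIs in any of the 5 gates and is not compared.

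*B2m* encodes β2-microglobulin, the chain every class I molecule shares, and none of its 60-base windows occurs in another gene. Its level was 3391 CPM [3329, 3455] in NOD and 2314 [2292, 2336] in CD1 macrophages, a log2 ratio of 0.55 [0.52, 0.58]. In fibroblasts it was 2999 [2836, 3168] and 1350 [1165, 1556], a log2 ratio of 1.15 [0.93, 1.38]. T cells had 2734 and 2167 (0.34 [0.24, 0.43]), NK cells 2244 and 2113 (0.09 [0.03, 0.15]) and endothelial cells 2654 and 2468 (0.10 [0.08, 0.13]). The endothelial value was near the median of 0.10 over all genes in that gate. It kept its sign in 11 of 12 alternatives and was -0.04 with free RNA subtracted. *B2m* thus differed little between NOD and CD1 endothelial cells, while *H2-D1* was lower in NOD there.

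*Tap1* and *Tap2* encode the paired subunits of the peptide transporter. *Tap1* was higher in NOD in all 5 gates. Its levels were 88.1 CPM [78.2, 98.9] in NOD and 44.9 [41.9, 48.1] in CD1 macrophages (log2 ratio 0.97 [0.77, 1.17]), and 92.5 and 65.9 in endothelial cells (0.49 [0.34, 0.64]). NK cells had 75.2 and 54.8 (0.46 [0.09, 0.83]). In T cells the interval held 0, at 120 and 96.7 (0.31 [-0.13, 0.79]). The fibroblast value of 2.04 [0.74, 3.71] came from 62 NOD and 5 CD1 UMIs. *Tap2* differed less, with log2 ratios of 0.47 [0.27, 0.66] in macrophages, 0.16 [0.06, 0.26] in endothelial cells and 0.95 [0.09, 1.92] in fibroblasts, and its intervals in T and NK cells held 0. *Tapbp* encodes tapasin, which bridges TAP and the empty class I molecule. It was 0.29 [0.15, 0.43] in macrophages and 0.23 [0.15, 0.32] in endothelial cells, and its intervals in T, NK and fibroblast gates held 0.

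*Psmb8* and *Psmb9* encode the catalytic subunits that replace their constitutive counterparts in the immunoproteasome. Both were higher in NOD macrophages: *Psmb8* was 496 CPM [472, 520] against 311 [303, 319] (log2 ratio 0.67 [0.59, 0.75]), and *Psmb9* 255 [238, 273] against 156 [150, 162] (0.71 [0.60, 0.82]). In endothelial cells both were slightly lower in NOD, at -0.10 [-0.16, -0.03] and -0.18 [-0.27, -0.08]. The intervals in T and NK cells held 0 for both. In fibroblasts *Psmb9* was higher on 63 and 10 UMIs (1.06 [0.09, 2.19]), whereas the *Psmb8* interval held 0 (0.12 [-0.50, 0.79]).

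*Nlrc5* was the member with the greatest log2 ratio in each of the 5 gates. Its level was 194 CPM [179, 210] in NOD and 57.0 [53.6, 60.6] in CD1 macrophages (log2 ratio 1.77 [1.62, 1.91]), and 131 [122, 141] and 44.5 [41.4, 47.8] in endothelial cells (1.56 [1.41, 1.71]). In NK cells it was 240 [220, 261] and 117 [102, 134] (1.04 [0.80, 1.28]), and in T cells 372 [359, 385] and 205 [165, 251] (0.86 [0.56, 1.18]). Fibroblasts had 53 NOD UMIs and 2 CD1 UMIs, a log2 ratio of 3.13 [1.21, 6.21]. In the B gate NOD had 173 UMIs, or 145 CPM, and CD1 had 0, with an interval of [0, 52.8] CPM. Endothelial cells had more *Nlrc5* in NOD beside less *H2-D1* and *H2-T23* and nearly the same *H2-K1*.

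**Figure D3:**
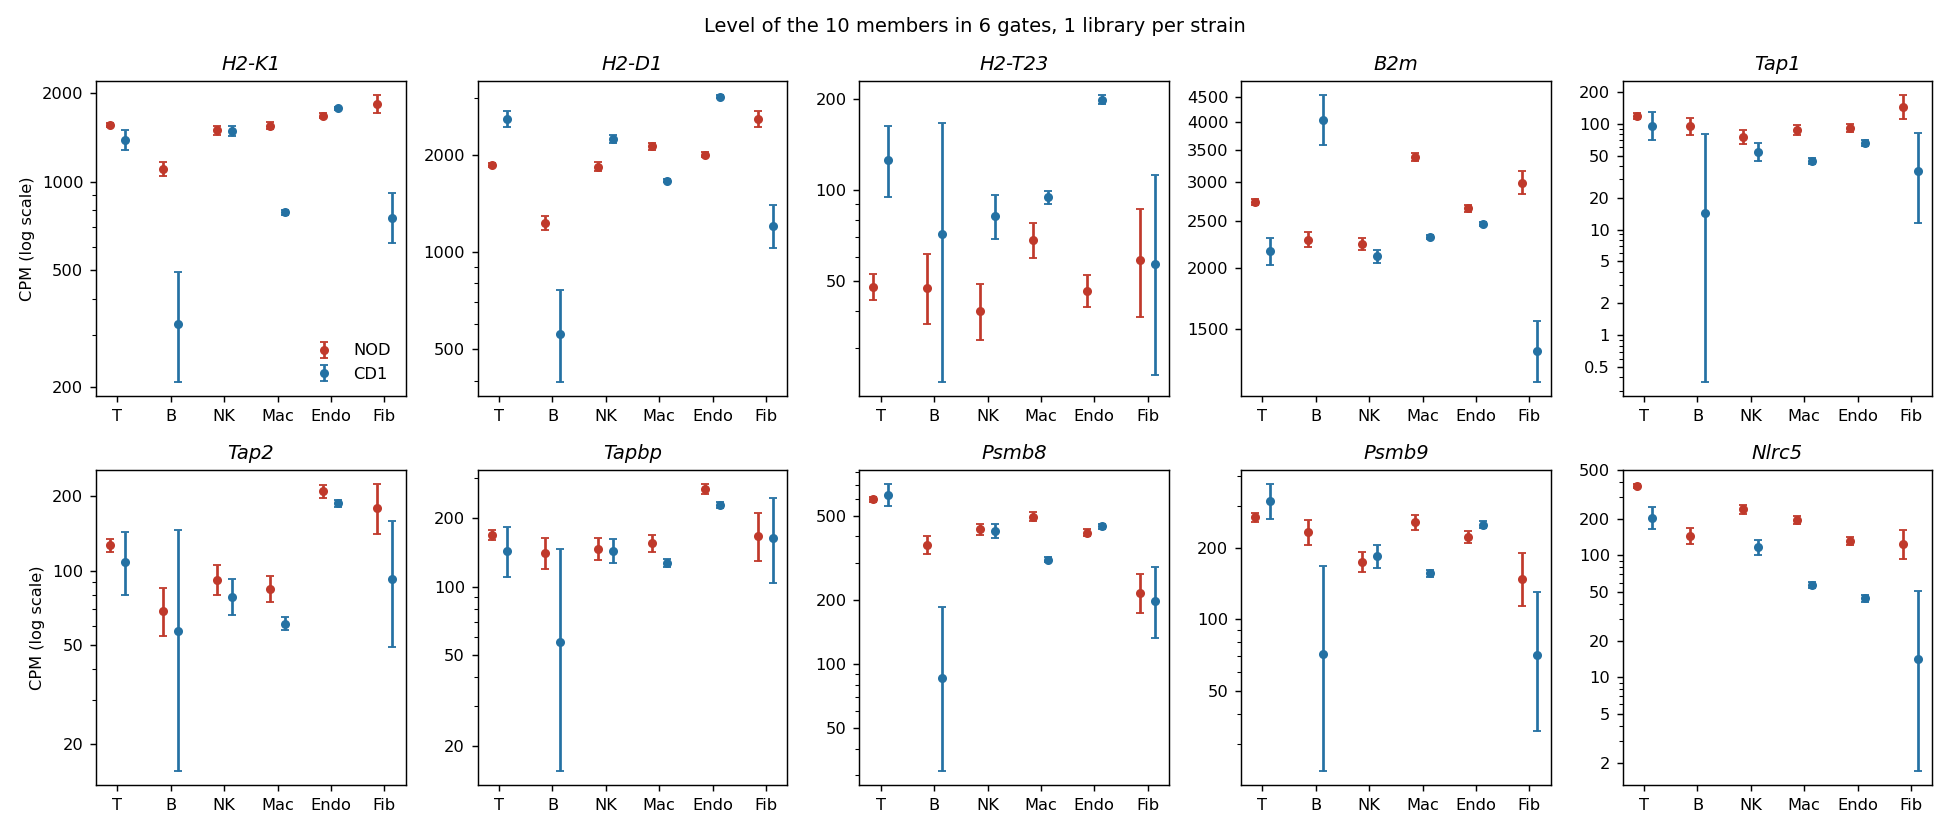
Level of each of the 10 genes (y axis, CPM, log scale with a range of its own in each panel) in the 6 gates (x axis; Mac, macrophage; Endo, endothelial; Fib, fibroblast) for the NOD and CD1 libraries, with exact Poisson 95% intervals. In the macrophage gate the NOD point is above the CD1 point for 9 of the 10 genes, *H2-T23* being the exception, and no CD1 point is drawn for *Nlrc5* in the B gate, where it had 0 UMIs.

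Within a library the cells ranked differently. In CD1 the summed members were highest in endothelial cells (8686 CPM), followed by T cells (7746), NK cells (6914), macrophages (5614), the B gate (5279) and fibroblasts (3937), and neighbours differed beyond counting error except macrophages and the B gate. In NOD the order was fibroblasts (8443), macrophages (8406), T cells (7849), endothelial cells (7708), NK cells (6771) and the B gate (5715), and only the first pair did not differ beyond counting error. *Psmb8* was highest in T cells and *Tapbp* in endothelial cells in both libraries, although the CD1 fibroblast level of *Tapbp* was within counting error of the endothelial one. *Nlrc5* was highest in T cells and next in NK cells in both.

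The spread over barcodes was wide in every gate. In macrophage barcodes with at least 1000 UMIs, the summed members made up a median of 82.7 per 10000 UMIs of a barcode in NOD (quartiles 59.6 and 113) and 53.2 in CD1 (38.5 and 72.1), so that the ranges overlapped. Endothelial barcodes had medians of 71.2 (44.6 and 97.9) in NOD and 80.9 (54.9 and 109) in CD1. T cell barcodes had medians of 75.6 and 75.9. Of NOD macrophage barcodes 1.89% had no UMI of *H2-K1* or *H2-D1*, and 4.41% of CD1 ones had none.

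**Figure D4:**
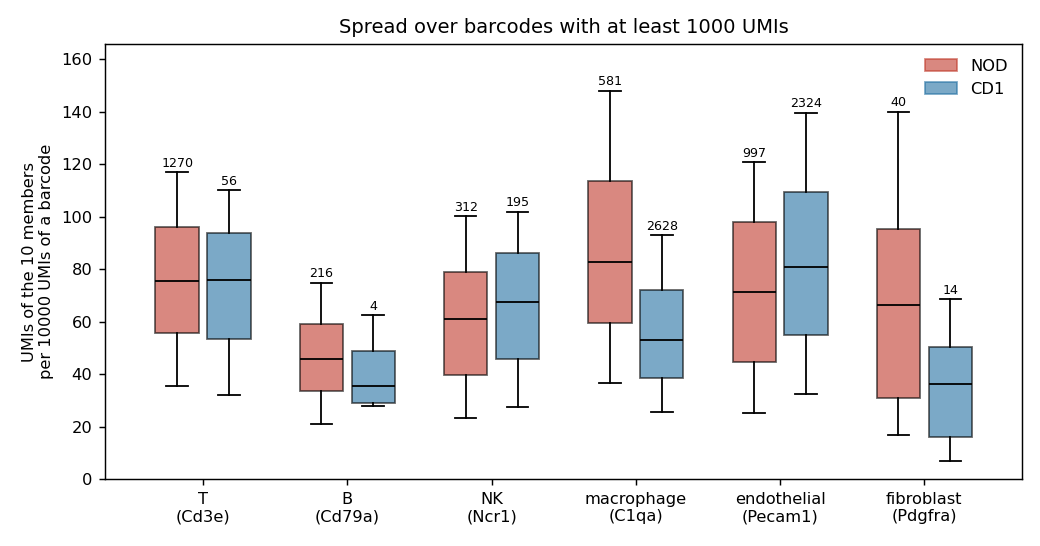
Summed UMIs of the 10 genes per 10000 UMIs of a barcode (y axis) in the 6 gates (x axis, with the gate gene) for barcodes with at least 1000 UMIs; boxes give the quartiles with the median as a line, whiskers the 10th and 90th percentiles, and the numbers above them the barcodes. The NOD box is above the CD1 box in the macrophage gate, with medians of 82.7 and 53.2, and below it in the endothelial gate, with medians of 71.2 and 80.9.

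T cells could be split further by their coreceptor UMIs. Barcodes with *Cd8a* and no *Cd4* UMIs numbered 391 in NOD and 15 in CD1, and those with *Cd4* and no *Cd8a* 499 and 18. *H2-D1* was lower in NOD in both, with log2 ratios of -0.63 [-0.76, -0.50] and -0.63 [-0.79, -0.48], and *H2-T23* likewise, at -1.51 [-2.14, -0.83] and -1.45 [-2.13, -0.69]. *Psmb8* and *Psmb9* were lower in NOD in the *Cd8a* barcodes, at -0.44 [-0.69, -0.19] and -0.57 [-0.92, -0.20], while both intervals held 0 in the *Cd4* barcodes. *Nlrc5* was 486 CPM in NOD and 237 in CD1 *Cd8a* barcodes, a log2 ratio of 1.04 [0.57, 1.55].

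The rest of the pathway was taken from a list of 38 genes, of which 37 were found. In macrophages 8 of the 33 with at least 20 UMIs were at least 1.5-fold higher in NOD, where 13.8% of all genes were, and 2 lower (12.4% of all genes). NK cells had 7 of 32 higher (13.8%) and 1 lower (9.68%). In the other gates the share of higher genes was near or below that of all genes. Endothelial cells had 3 of 33 higher (20.3%) and 3 lower (9.22%), T cells 8 of 32 (27.8%) and 1 (14.2%), fibroblasts 5 of 19 (26%) and 3 (20.2%), and the B gate 17 of 26 (64.9%) and 1 (9.88%). *Psmb10*, the remaining catalytic subunit of the immunoproteasome, and *Psme1* and *Psme2*, which form its PA28 cap, had the sign of *Psmb8* and *Psmb9* in macrophages and endothelial cells. Their log2 ratios were 0.53, 0.38 and 0.54 in macrophages and -0.35, -0.30 and -0.38 in endothelial cells, none past 1.5-fold. The constitutive subunits *Psmb5*, *Psmb6* and *Psmb7* gave 0.39, 0.16 and 0.06 in macrophages and -0.58, -0.72 and -0.38 in endothelial cells, and they too were lower in NOD endothelial cells. Fibroblasts did not follow *Psmb9* in all of these genes. *Psmb10* was 0.69 [-0.36, 1.91] there, *Psme1* -0.37 [-1.14, 0.44] and *Psme2* -1.14 [-2.13, -0.11], the last on 22 and 16 UMIs. *Psmb5*, *Psmb6* and *Psmb7* were -0.86, -0.89 and 0.52 in fibroblasts. *Calr*, calreticulin, which holds the empty class I molecule in the loading complex, was 776 CPM in NOD and 514 in CD1 macrophages (0.60 [0.53, 0.66]).

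Of the regulators, *Irf1*, an interferon-induced factor, was higher in macrophages (0.81 [0.65, 0.96]) and T cells (0.73 [0.28, 1.21]) and differed little in endothelial cells (0.12 [0.02, 0.23]). Its intervals held 0 in NK cells (0.20 [-0.05, 0.44]) and in fibroblasts (1.15 [-0.004, 2.54], on 47 and 7 UMIs). *Rfx5*, the DNA-binding subunit of RFX, had intervals that held 0 in all 5 gates, with at most 189 UMIs in a library.

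The promoters of members were read from RefSeq (GRCm38.p6) as 250 bases before to 50 after each start, and 8 of the 10 genes matched. Both strands were searched. The inverted CCAAT box that NF-Y recognises (ATTGG) was found in 7 of the 8, and in 37.4% of 32851 promoters of the same length. The CREB-type half-site TGACG, a motif chosen after the promoters were seen, was found in 5 of the 8 and in 20.8% of all. In *H2-K1*, *H2-D1* and *B2m* the half-site started 25 bases before the inverted CCAAT box, a spacing noticed here that occurred in 31 of the promoters, or 0.0944%, from 27 genes that also include *H2-M3*. The bases just before the start are shown for the 3 genes with this spacing, for *H2-T23*, the member with the lowest ratio in the T, NK, macrophage and endothelial gates, and for *Tap1*, which was higher in NOD in all 5 gates. Capitals mark the half-site, the CCAAT box in either direction and the interferon-response motif GAAANNGAAA, which overlaps no other match shown.
H2-K1, chr17:34000334-34000493, minus strand: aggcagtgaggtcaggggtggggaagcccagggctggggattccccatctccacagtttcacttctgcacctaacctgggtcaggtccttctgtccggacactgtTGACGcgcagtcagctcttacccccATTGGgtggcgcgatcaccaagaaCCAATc
H2-D1, chr17:35262934-35263093, plus strand: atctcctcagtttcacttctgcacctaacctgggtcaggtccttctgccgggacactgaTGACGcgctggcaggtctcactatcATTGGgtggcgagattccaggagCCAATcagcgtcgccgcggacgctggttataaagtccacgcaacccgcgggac
B2m, chr2:122147527-122147686, plus strand: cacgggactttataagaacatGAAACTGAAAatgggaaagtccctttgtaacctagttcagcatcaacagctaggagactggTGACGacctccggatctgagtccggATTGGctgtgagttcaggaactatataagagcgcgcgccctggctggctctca
H2-T23, chr17:36032702-36032861, minus strand: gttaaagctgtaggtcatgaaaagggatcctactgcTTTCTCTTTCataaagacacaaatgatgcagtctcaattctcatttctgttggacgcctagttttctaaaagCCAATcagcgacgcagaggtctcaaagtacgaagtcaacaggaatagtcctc
Tap1, chr17:34187306-34187555, plus strand: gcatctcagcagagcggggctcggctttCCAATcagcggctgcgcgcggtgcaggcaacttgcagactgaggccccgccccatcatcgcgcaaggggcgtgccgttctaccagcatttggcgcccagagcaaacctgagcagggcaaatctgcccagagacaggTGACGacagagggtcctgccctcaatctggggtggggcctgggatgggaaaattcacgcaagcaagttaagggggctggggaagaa
GAAANNGAAA was found in *B2m* and *H2-T23* and in 3.44% of all promoters, and the interferon-gamma motif TTCNNNGAA in *Psmb8* and in 8.30% of all. *Psmb9* starts on the opposite strand beside *Tap1*, and the windows of these genes overlap. Their half-site and CCAAT box are the same bases read from either strand, so each of these sites counts for both genes above. A match describes letters in the reference strain and not a bound site.

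Likeness to the members was measured over the 9 groups of gate and strain with at least 50 barcodes, as Pearson's r with the mean centred log2 level of the members after adding 10 CPM. Among 10082 genes with at least 500 UMIs, the 5 genes most alike outside the list were *Gm51748* (r = 0.951), *Sugt1* (0.915), *Golga3* (0.901), *Acbd3* (0.883) and *Igtp* (0.878), which encodes an interferon-induced GTPase. *Igtp* was 60.3 CPM in NOD and 23.7 in CD1 macrophages, and 185 and 96.2 in endothelial cells. The members themselves ranged from 0.167 (*H2-T23*) to 0.872 (*Psmb8*). The groups share libraries and depth, so these values describe the 9 points only.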

How the data were processed

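The values start from the deposited UMI counts per gene and barcode of 1 NOD/ShiLtJ and 1 CD1 library, unfiltered and unscaled. Per the labels, the authors counted with Cell Ranger 8.0.0 on GRCm39 and used Seurat 5.0.1 in R 4.3.1. Whether the kit read RNA from the front or the tail end is not given in the sources, and nothing after counting enters the values. Barcodes with at least 500 UMIs and 300 genes were kept, with no mitochondrial limit and no doublet caller beyond the gates. UMIs were summed per gate and library and given as counts per 1000000 UMIs (CPM). No test was made. A gene counted as past the fold at 1.5-fold with at least 20 UMIs over both libraries. Intervals were checked on simulated counts that held counting error only, so the check says nothing of spread between barcodes or mice.

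The members and lists were chosen with earlier results of these data known. Named are all members, the pathway genes set beside a member, the 3 other pathway genes highest and lowest in each gate, and the 5 genes most like the members. Some genes under this rule are not reported here. *H2-T10* was named after its values were seen. Sequences came from RefSeq and GENCODE on GRCm38. *Tap2* and *Nlrc5* promoters and protein sequences were not analysed here. Alternatives changed the gates, barcode filters, scaling, doublets and free RNA. Python 3.11.15 with scipy 1.17.1, scanpy 1.11.5 (Scrublet) and matplotlib 3.10.9 was used.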

Additional observations from a re-analysis of the deposited data

Results flagged for a closer look

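Some members had opposite signs in different gates. *H2-K1* had a log2 ratio of NOD over CD1 of 1.28 in fibroblasts and -0.086 in endothelial cells, and *H2-D1* 1.10 and -0.60. *Psmb9* had 1.06 and -0.18 in the same gates, and the 10 members summed 1.10 and -0.17. *Psmb8* had 0.67 in macrophages and -0.10 in endothelial cells. Each gate holds 1 library per strain, so none of these differences between gates was tested.

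Barcodes and droplets outside the 6 gates also carried members at other levels in NOD. In barcodes with no UMI of any gate gene, 789 in NOD and 566 in CD1, the summed members had a log2 ratio of 0.85, and mitochondrial UMIs made up 11.7% and 13.1%. In empty droplets the summed members had a log2 ratio of 0.51, with 9759.6 CPM in NOD and 6842 in CD1.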

How the results depend on the processing

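No paired analysis was possible because each strain has 1 library. Over 14 alternatives, 78 of 82 recomputed counts of members at least 1.5-fold higher stayed within 1.5 times. With 2-fold as the limit the count was 0 in T cells, where 16.9% of all genes were past it. It was 1 in macrophages (6.95%), so the macrophage count depends on the 1.5-fold limit. With each barcode weighing the same the count was 2 in T cells (30.2%) and 2 in NK cells (16.5%). Among ratios of at least 1.5-fold the sign turned only in the B gate, with 2 to 11 CD1 barcodes. *Tapbp* was -0.21 with barcodes given to the gate gene with the most UMIs, and -0.44 without the highest Scrublet scores (338 NOD and 394 CD1 barcodes), where *B2m* was 1.13. The cause was not tested. The summed log2 ratio ranged from 0.54 to 0.64 in macrophages, 1.01 to 1.30 in fibroblasts and -0.28 to -0.12 in endothelial cells. It took both signs in T and NK cells. The free RNA share set by salivary secretory genes came to 213% in NOD macrophages and 75.5% in the NOD B gate, where no level was left, so that alternative gave no value in these gates. This share divides the level of these genes in a gate by their level in the empty droplets of the same library. It was higher in NOD than in CD1 in T cells (17.9% and 1.83%), NK cells (8.48% and 1.19%), endothelial cells (15.9% and 1.62%) and fibroblasts (17.6% and 1.42%). The level in the gates was lower in NOD, at 145 and 256 CPM in T cells and 68.9 and 167 in NK cells. Endothelial cells had 129 and 227 CPM and fibroblasts 143 and 199. Whether NOD barcodes held more free RNA was not tested. Alternatives chosen after seeing the data gave 0.55 in macrophages with at least 5000 UMIs (246 NOD and 1626 CD1 barcodes). With 10% of UMIs taken as free RNA in both libraries the macrophage value was 0.59, which does not allow for a share that differs between them. Counts of members at least 1.5-fold lower were 1 in the endothelial gate under 5 alternatives, the 2-fold limit included. They were 1 in macrophages and fibroblasts under 1 and 2 alternatives. The share of all genes that were lower was not computed for the alternatives. The CD1 fibroblast and B gates rest on 15 and 4 barcodes.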

Other observations

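*H2-M3*, which presents peptides that start with formylmethionine, was 89.0 CPM in NOD and 86.3 in CD1 macrophages, a log2 ratio of 0.05 [-0.14, 0.23], and 44.8 and 47.7 in endothelial cells (-0.09 [-0.30, 0.11]). *Fcgrt* encodes the class I-like chain of the receptor that spares antibodies and albumin from breakdown. It was 199.7 CPM in NOD and 263 in CD1 fibroblasts, where the interval held 0 (-0.40 [-0.97, 0.20]). In endothelial cells it was 67.7 and 81.5 (-0.27 [-0.43, -0.10]). In macrophages it was 40.7 and 54.9 (-0.43 [-0.70, -0.17]). NK cells went the other way, at 3.91 [1.26, 9.29], on 19 NOD UMIs and 1 CD1 UMI. *H2-K2* was higher in NOD in T cells, NK cells, macrophages and endothelial cells, with log2 ratios of 1.17, 0.85, 1.25 and 0.66.

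Barcodes with UMIs of several gate genes, 2133 in NOD and 919 in CD1, had a summed log2 ratio of -0.02. There *Nlrc5* was at 1.69 and *H2-T23* at -1.42.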
